A study of Mus musculus with 8 samples.

Results

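Lysosome and autophagy genes of irradiated LLC1 cells are described here, 38 genes taken by name from the gene symbols of the arrays, of 13411 genes that could be tested. The set holds 28 lysosome genes (5 membrane proteins, 7 proteases, 7 glycosidases, 5 proteins of lipid breakdown or enzyme support, 3 proteins of the proton pump and the transcription factor Tfeb) and 10 autophagy genes. All 38 had a probe above background and were tested. LLC1 is a Lewis lung carcinoma line from a C57BL/6 mouse, so every value comes from 1 line in culture. Cells received X-rays as a single dose of 2 Gy (3 arrays), as a single dose of 10 Gy (2 arrays) or as 5 doses of 2 Gy, written 5x2 Gy (3 arrays), and RNA was taken 4 h later. Each of the 8 arrays carried RNA of irradiated cells in Cy5 and RNA of untreated cells in Cy3. The dyes were never exchanged, so a gene's dye bias would add to every ratio against untreated RNA. The labels call the replicates biological, and the 10 Gy arrays used here are those numbered 1 and 2. The labels do not give the time between fractions, nor say whether arrays share a culture or a batch of untreated RNA.

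Lysosomes are acidic compartments in which hydrolases break down proteins, glycans and lipids. A proton pump of the V-ATPase type keeps them acid, and a coat of glycosylated membrane proteins lines them. In autophagy, a kinase complex that contains Ulk1 starts a membrane that grows around cell contents, proteins of the Atg8 family are coupled to the lipids of that membrane, and the closed vesicle fuses with a lysosome. Transcription factors related to TFEB are known to bind CACGTG elements in many lysosome gene promoters and to act on autophagy genes as well.

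The irradiated channel gave 44.9% to 47.5% of probes above background on the 2 Gy arrays, 41.6% and 37.1% on 10 Gy replicates 1 and 2, and 34.7% to 36.0% on the 5x2 Gy arrays, while the untreated channel gave 44.8% to 49.1%. The 4 arrays of slide 1 were those of 2 Gy with the first of 10 Gy, and on slide 2 lay the arrays of 5x2 Gy with the other of 10 Gy. The share of probes above background in the irradiated channel was thus lowest on slide 2, which held all arrays of the regimen with the most calls, and its part in the results was not tested. Replicate 1 of 10 Gy stood apart in spread: the SD of its log2 ratios was 0.69 over all genes and 0.69 over the 38 members, against 0.46 and 0.31 on 10 Gy replicate 2. Over the 38 members its log2 ratios correlated with those of 10 Gy replicate 2 at r = 0.34, while pairs of 5x2 Gy arrays correlated at r = 0.69 to 0.81. On slide 2, r of 10 Gy replicate 2 with 5x2 Gy replicates 1, 2 and 3 was 0.65, 0.55 and 0.58 over members. Over all genes it was 0.85, 0.75 and 0.80, against 0.43 with 10 Gy replicate 1. On slide 1, r of 10 Gy replicate 1 with 2 Gy replicates 1, 2 and 3 was 0.36, 0.53 and 0.60 over members. Over all genes it was 0.51, 0.39 and 0.455. Across slides, r of 10 Gy replicate 2 with 2 Gy replicates 1, 2 and 3 was 0.52, 0.46 and 0.56 over all genes, and 0.07, 0.20 and 0.37 over members. That of 10 Gy replicate 1 with 5x2 Gy replicates 1, 2 and 3 was 0.36, 0.42 and 0.41 over all genes, and 0.34, 0.54 and 0.44 over members. Thus 10 Gy replicate 2 lay closer to its slide's 5x2 Gy arrays than to 10 Gy replicate 1. Over all genes its r with 10 Gy replicate 1 was also below that with each 2 Gy array of the other slide. The slide's part in this was not tested. Members of 1 array share its RNA and hybridisation, so these correlations are descriptions. The p53 targets Cdkn1a, Mdm2 and Ccng1 had positive log2 ratios on all 8 arrays. Macrophages hold much lysosomal RNA, and of 9 macrophage markers 7 had no probe above background, among them Ptprc, Adgre1, Csf1r and Itgam. The other macrophage markers, Cd14 and Lyz2, had log2 ratios of 0.07 to 1.06 and 0.05 to 2.53 over the 8 arrays, all positive. Cd14 was called higher after 2 Gy (0.62 ± 0.16) and 5x2 Gy (0.57 ± 0.16), and Lyz2 after 10 Gy (1.66 ± 0.33). The limma adjusted p were 0.027, 0.017 and 0.0057. Lyz2 was above background in the untreated channel on 0 arrays. The part of Cd14 and Lyz2 in the results was not tested. Epcam and Cdh1, which define epithelial cells, were not above background, while 5 of 7 epithelial, 6 of 6 mesenchymal and 5 of 6 fibroblast markers could be tested. After 5x2 Gy 1 of each of these lists was called higher, namely Krt8 (0.77 ± 0.13), Fn1 (0.75 ± 0.17) and Dcn (1.21 ± 0.24), and Krt18 (-0.63 ± 0.13) and Col1a1 (-0.62 ± 0.12) were called lower (limma adjusted p of 0.0022, 0.0082, 0.0039, 0.0044 and 0.0036). Krt18 was also called lower after 2 Gy (-0.48 ± 0.13) and 10 Gy (-0.89 ± 0.16), and Krt19 (-0.87 ± 0.20) and Snai2 (-1.02 ± 0.19) after 10 Gy. The limma adjusted p were 0.033, 0.0035, 0.0115 and 0.0046. Cd4, a lymphocyte marker, was called lower after 5x2 Gy (-0.36 ± 0.09, limma adjusted p = 0.014). The part of these markers in the results was not tested. The number of arrays limits the precision.

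Most lysosome and autophagy genes that changed were higher in irradiated than in untreated cells, and the number called was largest after the fractionated dose. After 2 Gy, 6 of 38 were higher and 0 lower, where 16.9% of all genes were called in either direction (8.99% higher, 7.93% lower). After 10 Gy, 13 were higher and 1 lower, where 28.2% of all genes were called (12.4% higher, 15.8% lower). After 5x2 Gy, 24 were higher and 0 lower, where 41.0% of all genes were called (17.6% higher, 23.4% lower). The share of all genes called thus rose in the same order, and the 10 Gy means rest on 2 arrays against 3. Not every setting kept this order: scaling between arrays gave 16, 7 and 15 members, beside 4127, 2743 and 3965 of all genes. A random slide block gave 0, 4 and 3, beside 21, 1464 and 817 of all genes. A gene is called here at an adjusted p under 0.05 in limma, with Benjamini-Hochberg adjustment over all 13411 genes and no minimum fold. The changes were small for most members: those called higher after 5x2 Gy lay between 0.24 and 1.19 on the log2 scale, or 1.18-fold and 2.28-fold, and 1 of the 24 reached 2-fold.

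The counts rest on the arrays unequally. Without 10 Gy replicate 1, 12 members were called after 10 Gy, of which 5 (Ctsd, Man2b1, Atp6v1h, Ulk1 and Gabarapl2) were among the 14, and without 10 Gy replicate 2, 18 were called, of which 13 were among the 14. Leaving out either 10 Gy array gave 18 members called after 2 Gy (17 higher, 1 lower) and 31 after 5x2 Gy, all 31 higher. Of all 13411 genes, 5390 and 7985 were called in these fits, in which all regimens share 1 estimate of a gene's spread. With 1 array of 10 Gy left in a fit, no spread between 10 Gy arrays enters. Leaving out 5x2 Gy replicate 1, 2 or 3 gave 13, 11 and 11 members called after 5x2 Gy, beside 3217, 3100 and 3010 of all genes. Leaving out 2 Gy replicate 1, 2 or 3 gave 3, 0 and 0 after 2 Gy, beside 941, 484 and 408 of all genes. The 9 that lost their call, at the values of 10 Gy replicate 2 alone, were Cd63 (0.32), Lamp2 (-0.23), Ctsh (0.36), Gla (0.41), Npc2 (0.15), Atp6v0d1 (0.23), Wipi1 (0.33), Map1lc3b (0.43) and Sqstm1 (0.45). Arrays of 2 Gy and 5x2 Gy never shared a slide. With the slide as a random block, 0, 4 and 3 members were called after 2 Gy, 10 Gy and 5x2 Gy. Of all genes, 21, 1464 and 817 were called there.

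**Figure D1:**
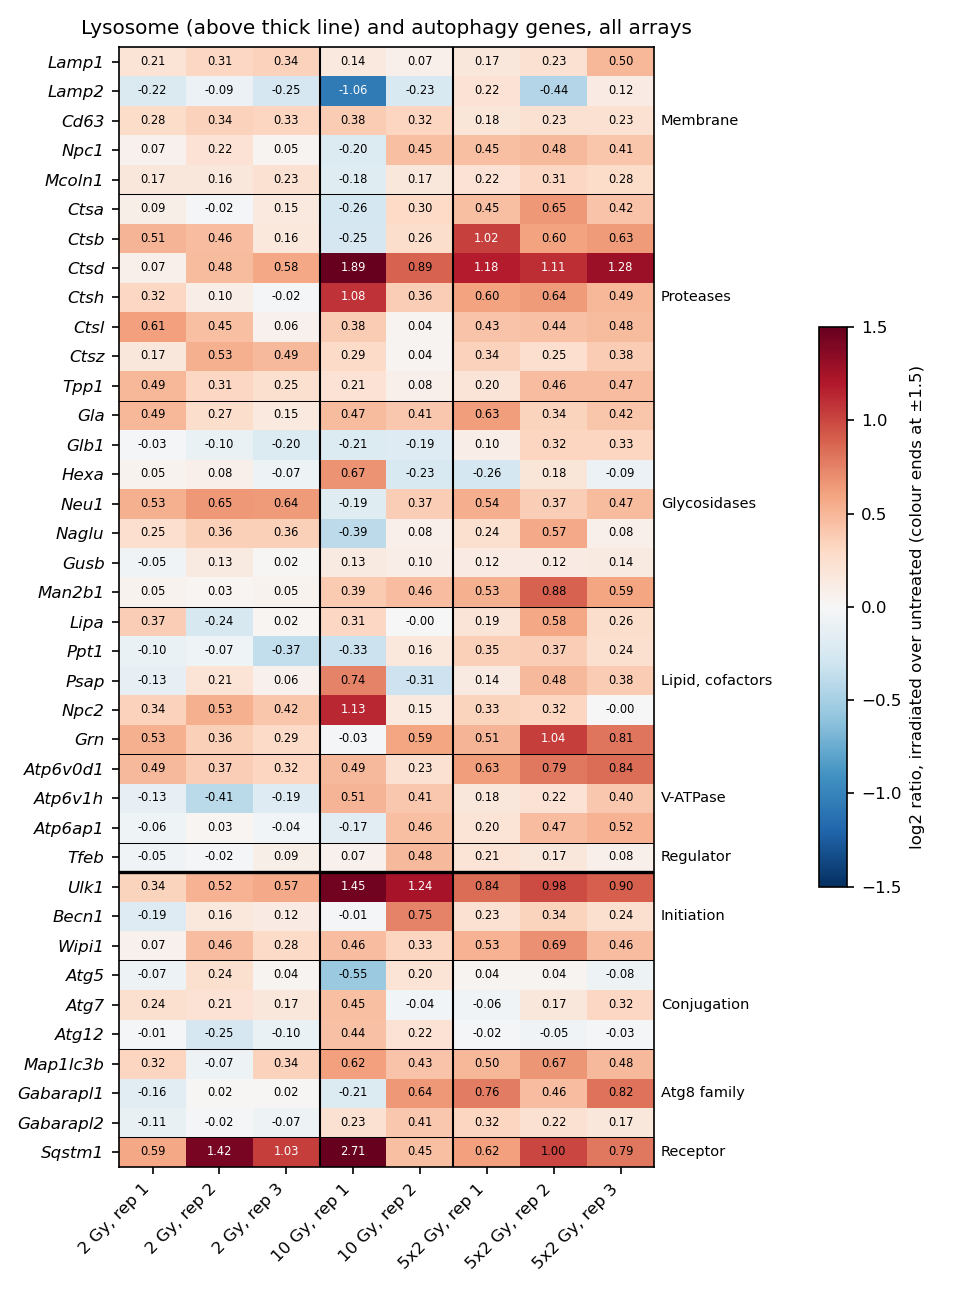
Log2 ratio of irradiated over untreated cells for each of the 38 genes (down, grouped by role) on each of the 8 arrays (across, with replicate numbers), with the value printed in each cell. Red is higher and blue lower in irradiated cells, and the colour ends at ±1.5. The 3 arrays of 5x2 Gy are red for 34 to 36 of the 38 genes, and 10 Gy replicate 1 holds both the highest value (Sqstm1, 2.71) and the lowest (Lamp2, -1.06).

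By array, the median log2 ratio of the 28 lysosome genes was 0.17, 0.21 and 0.12 after 2 Gy, 0.18 and 0.20 after 10 Gy, and 0.29, 0.41 and 0.40 after 5x2 Gy. With loess, the 3 arrays of 5x2 Gy thus lay above all arrays of the single doses. With median centring in its place the median of the regimen means was 0.42, 0.52 and 0.44 after 2 Gy, 10 Gy and 5x2 Gy, so that 10 Gy was highest, and that of all genes was 0.13, 0.01 and 0.01. The median of the 10 autophagy genes was 0.03, 0.19 and 0.15 after 2 Gy, 0.44 and 0.42 after 10 Gy, and 0.41, 0.40 and 0.39 after 5x2 Gy, so here the 10 Gy and 5x2 Gy arrays lay together above those of 2 Gy. The median of all genes was between -0.05 and -0.01 on every array. The lysosome median minus the autophagy median was 0.14, 0.02 and -0.03 on the 2 Gy arrays, -0.26 and -0.22 on the 10 Gy arrays, and -0.12, 0.01 and 0.02 on the 5x2 Gy arrays. Both 10 Gy arrays, which lay on different slides, were the lowest in this difference. With median centring the gap after 10 Gy was gone, at 0.52 for lysosome and 0.51 for autophagy genes. These medians are descriptions of 28 and 10 genes and carry no test.

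**Figure D2:**
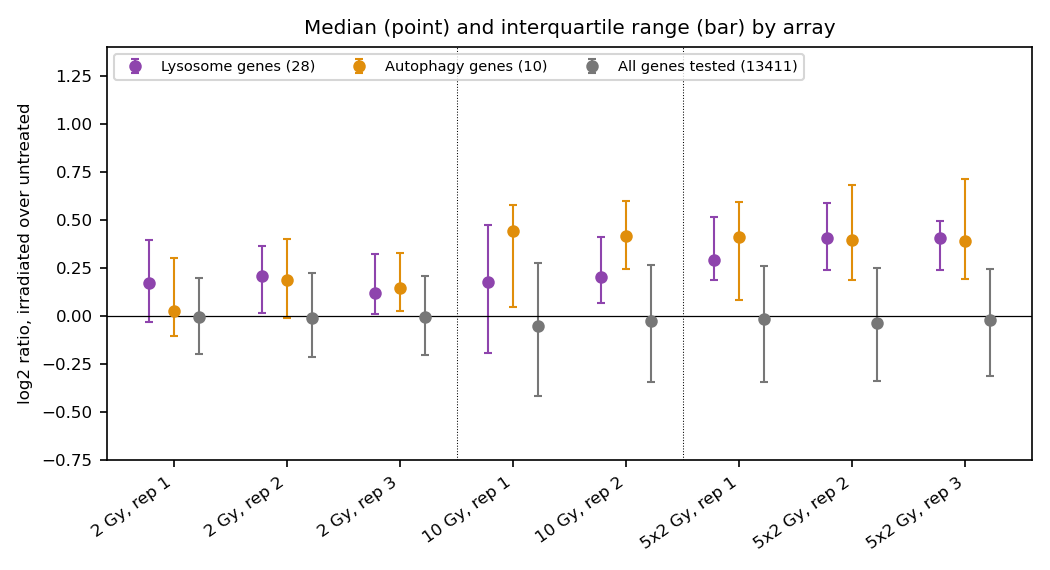
Median log2 ratio of irradiated over untreated cells (points) with the interquartile range over genes (bars) on each array, for 28 lysosome genes (purple), 10 autophagy genes (orange) and all 13411 genes tested (grey). The medians of all genes lie at 0 or just below it, lysosome medians are highest on the 5x2 Gy arrays (0.29 to 0.41) with loess but not with median centring, and autophagy medians are near 0.40 on both 10 Gy and all 5x2 Gy arrays.

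Of the 28 lysosome genes, 5 were called higher after 2 Gy, 8 after 10 Gy and 19 after 5x2 Gy, and Lamp2 was called lower after 10 Gy. Of the 10 autophagy genes, 1, 5 and 5 were called higher and none lower. Among all genes 8.99%, 12.4% and 17.6% were called higher after 2 Gy, 10 Gy and 5x2 Gy. Atp6v0d1 and Ulk1 were called higher after all 3 regimens. Another 8 members were called after 10 Gy and 5x2 Gy but not after 2 Gy, 3 after 2 Gy and 5x2 Gy, 1 after both single doses, 2 after 10 Gy alone and 11 after 5x2 Gy alone. A gene called after 1 regimen and not after another is not shown to differ between them. The signs were also counted by array: after 5x2 Gy, 32 of 38 members were positive on all 3 arrays and 1, Atg12, was negative on all 3, where 75.5% of all genes had 1 sign on all 3 arrays. After 2 Gy 20 members were positive on all arrays and 6 negative (64.5% of all genes had 1 sign), and after 10 Gy 20 and 2 (60.5% of all genes). Over all 8 arrays, 9 lysosome and 3 autophagy genes were never below 0. The share of all genes with this pattern was not counted, and a gene's dye bias would add to all 8 values.

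**Figure D3:**
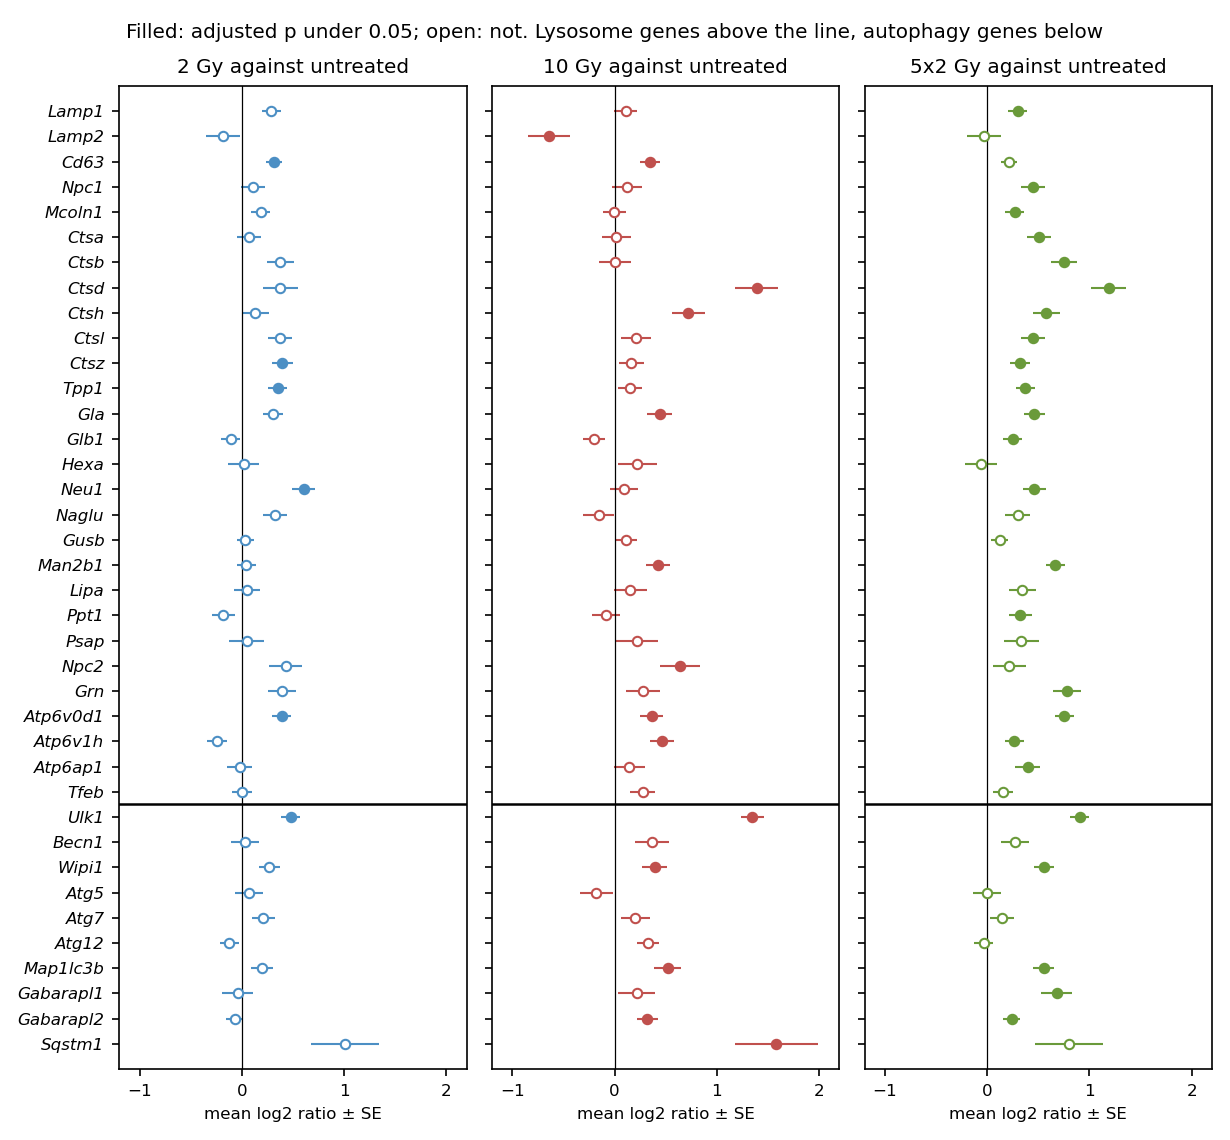
Mean log2 ratio against untreated cells with its SE from limma for each gene after 2 Gy (left, 3 arrays), 10 Gy (middle, 2 arrays) and 5x2 Gy (right, 3 arrays). Filled points have an adjusted p under 0.05, and the horizontal line parts 28 lysosome genes (above) from 10 autophagy genes (below). Filled points number 6, 14 and 24, and only Lamp2 after 10 Gy is a filled point left of 0.

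Promoter sequence was read for the members because CACGTG is the core of the element that TFEB is known to bind. Promoter windows from RefSeq (build GRCm38.p6, 250 bases before to 50 after the gene start) were at hand for 32 of the 38 members. Of 24 lysosome genes, 9 held CACGTG in a window (37.5%), as did 2 of 8 autophagy genes, Atg5 and Atg7 (25%), and 8.09% of 27025 genes. The longer TCACGTGA, which contains CACGTG, stood in 5 of the 24 lysosome genes (20.8%), in 0 of the 8 autophagy genes and in 1.12% of all genes. Among other genes of the pathways, CACGTG stood in 22 of 81 lysosome genes (27.2%) and 8 of 50 autophagy genes (16%). Both motifs read the same on both strands. Stretches from 6 lysosome promoters are shown because they hold the motif and stand for different roles, from a membrane protein to a glycosidase. They are written on the strand of the gene, with CACGTG in capitals, and end before the gene start.

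Lamp1: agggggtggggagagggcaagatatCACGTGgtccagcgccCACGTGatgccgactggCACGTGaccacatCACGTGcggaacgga
Mcoln1: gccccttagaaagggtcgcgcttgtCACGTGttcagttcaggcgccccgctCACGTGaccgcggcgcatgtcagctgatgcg
Ctsa: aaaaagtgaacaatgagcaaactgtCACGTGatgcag
Ctsd: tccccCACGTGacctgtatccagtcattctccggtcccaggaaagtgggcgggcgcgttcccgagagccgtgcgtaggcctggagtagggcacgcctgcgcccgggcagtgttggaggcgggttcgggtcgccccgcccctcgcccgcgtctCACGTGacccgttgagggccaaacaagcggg
Gla: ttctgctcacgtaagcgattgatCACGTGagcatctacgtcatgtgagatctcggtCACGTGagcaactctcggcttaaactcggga
Naglu: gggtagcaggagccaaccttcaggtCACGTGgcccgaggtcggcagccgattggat

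The stretch of Lamp1 lies at chr8:13159075-13159160 on the plus strand and holds 4 copies, the first bases of which are 61, 45, 28 and 15 bases before the gene start. That of Mcoln1 lies at chr8:3500423-3500504 (plus strand) with 2 copies, that of Ctsa at chr2:164833736-164833772 (plus strand) with 1, and that of Naglu at chr11:101069996-101070051 (plus strand) with 1. Those of Ctsd at chr7:142387895-142388077 and of Gla at chrX:134601169-134601255 lie on the minus strand and hold 2 copies each. Of the 9 lysosome genes with CACGTG, 8 were called higher after 5x2 Gy, the exception being Naglu, with a median log2 ratio of 0.45. Of the 15 lysosome genes without it in a window, 7 were called higher, with a median of 0.32. After 2 Gy 1 of 9 and 4 of 15 were called higher, and after 10 Gy 3 of 9 and 3 of 15. Among all genes 17.6%, 8.99% and 12.4% were called higher after 5x2 Gy, 2 Gy and 10 Gy. The autophagy genes with the motif, Atg5 and Atg7, were called after none of the regimens. A match is a description of letters, and whether any factor was bound there was not measured.

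Of the 5 membrane genes, 1 was called higher after 2 Gy, 1 higher and 1 lower after 10 Gy, and 3 higher after 5x2 Gy. Shares of all genes called higher were 8.99%, 12.4% and 17.6%, and 15.8% were lower after 10 Gy. Lamp1, a main glycoprotein of the lysosomal membrane, had log2 ratios of 0.21, 0.31 and 0.34 after 2 Gy, 0.14 and 0.07 after 10 Gy, and 0.17, 0.23 and 0.50 after 5x2 Gy. All 8 values were positive and the groups of 2 Gy and 5x2 Gy overlapped. Its mean rose by 0.30 ± 0.09 after 5x2 Gy (SE, limma adjusted p = 0.030), and was 0.29 ± 0.09 after 2 Gy (adjusted p = 0.063) and 0.11 ± 0.12 after 10 Gy (adjusted p = 0.51). Lamp2, its relative, which is needed for fusion of autophagic vesicles with lysosomes, was at -0.22, -0.09 and -0.25 after 2 Gy, -1.06 and -0.23 after 10 Gy, and 0.22, -0.44 and 0.12 after 5x2 Gy. Its call after 10 Gy (-0.64 ± 0.20, limma adjusted p = 0.042) was lost without 10 Gy replicate 1 (-0.23, adjusted p = 0.39). A second probe of Lamp2 was at -0.03 after 10 Gy and 0.58 after 5x2 Gy, so the probes of this gene did not agree.

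Cd63, a tetraspanin of late endosomes and lysosomes, had log2 ratios of 0.28, 0.34 and 0.33 after 2 Gy, 0.38 and 0.32 after 10 Gy, and 0.18, 0.23 and 0.23 after 5x2 Gy. All 8 values were positive, but the probe was saturated in some channel on every array, so the ratios of the regimens cannot be ranked. Its irradiated channel was saturated on all arrays of the single doses, so it was at least 1.25-fold higher after 2 Gy (limma adjusted p = 0.026) and at least 1.27-fold higher after 10 Gy (adjusted p = 0.027), where the untreated channel was also saturated on 1 of 2 arrays and the bound is uncertain. The call after 10 Gy was lost without 10 Gy replicate 1 (0.32, adjusted p = 0.057). Npc1, which exports cholesterol, and Mcoln1, a calcium channel of the lysosomal membrane, rose after 5x2 Gy by 0.45 ± 0.12 and 0.27 ± 0.09 (adjusted p = 0.015 and 0.042).

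All 7 protease genes were called higher after 5x2 Gy, against 2 after 2 Gy and 2 after 10 Gy. Shares of all genes called higher were 17.6%, 8.99% and 12.4%. The 7 protease genes were positive on all 3 arrays of 5x2 Gy, as were 4767 of all 13411 genes. Ctsd, the aspartic protease cathepsin D, had log2 ratios of 0.07, 0.48 and 0.58 after 2 Gy, 1.89 and 0.89 after 10 Gy, and 1.18, 1.11 and 1.28 after 5x2 Gy. Every array of 10 Gy and 5x2 Gy lay above those of 2 Gy, and the 5x2 Gy arrays lay between the 10 Gy arrays. Ctsd rose by 1.39 ± 0.21 after 10 Gy (2.62-fold, limma adjusted p = 0.0016) and by 1.19 ± 0.17 after 5x2 Gy (2.28-fold, adjusted p = 0.00093), and was at 0.38 ± 0.17 after 2 Gy (adjusted p = 0.16). Its second probe gave means of 0.24, 1.10 and 1.33 after 2 Gy, 10 Gy and 5x2 Gy. Without 10 Gy replicate 1 the 10 Gy value was 0.89, from 1 array.

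Ctsb, a cysteine protease, was at 0.51, 0.46 and 0.16 after 2 Gy, -0.25 and 0.26 after 10 Gy, and 1.02, 0.60 and 0.63 after 5x2 Gy. On this probe the 5x2 Gy arrays were above all others, and the mean rose by 0.75 ± 0.13 (limma adjusted p = 0.0022). Its second, dimmer probe was at -0.08, -0.03 and 0.11 after 2 Gy, 0.92 and 0.41 after 10 Gy, and 0.34, 0.56 and 0.47 after 5x2 Gy, so the probes disagreed after 10 Gy. Averaged over both, Ctsb was called after 10 Gy as well (0.33, adjusted p = 0.022) and after 5x2 Gy (0.60, adjusted p = 0.00051). Ctsh, another cysteine protease, had log2 ratios of 0.32, 0.10 and -0.02 after 2 Gy, 1.08 and 0.36 after 10 Gy, and 0.60, 0.64 and 0.49 after 5x2 Gy. It rose by 0.72 ± 0.16 after 10 Gy, where its arrays differed most, and by 0.58 ± 0.13 after 5x2 Gy (limma adjusted p = 0.010 and 0.0077). Ctsa, a carboxypeptidase that stabilises the enzymes of Glb1 and Neu1 in a complex, rose after 5x2 Gy by 0.51 ± 0.12 (adjusted p = 0.0073).

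Ctsz, a cysteine carboxypeptidase, was at 0.17, 0.53 and 0.49 after 2 Gy, 0.29 and 0.04 after 10 Gy, and 0.34, 0.25 and 0.38 after 5x2 Gy, with all groups overlapping. It was called after 2 Gy (0.40 ± 0.10, limma adjusted p = 0.028) and 5x2 Gy (0.32 ± 0.10, adjusted p = 0.030), but its second probe was at 0.14 and -0.21 there. Tpp1, a tripeptidyl peptidase, had log2 ratios of 0.49, 0.31 and 0.25 after 2 Gy, 0.21 and 0.08 after 10 Gy, and 0.20, 0.46 and 0.47 after 5x2 Gy. It was called after 2 Gy and 5x2 Gy as well (0.35 ± 0.10 and 0.37 ± 0.10, limma adjusted p = 0.037 and 0.013), and was at 0.15 ± 0.12 after 10 Gy (adjusted p = 0.38). Its second, dimmer probe gave means of 0.57, 0.71 and 0.98 after 2 Gy, 10 Gy and 5x2 Gy. Ctsl, a cysteine protease saturated in the irradiated channel on 2 of 3 arrays of 5x2 Gy, rose there by 0.45 ± 0.12 (adjusted p = 0.014).

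Glycosidases were mixed: 1, 2 and 4 of 7 were called higher after 2 Gy, 10 Gy and 5x2 Gy, and none lower. Shares of all genes called higher were 8.99%, 12.4% and 17.6%. Man2b1, the lysosomal alpha-mannosidase, had log2 ratios of 0.05, 0.03 and 0.05 after 2 Gy, 0.39 and 0.46 after 10 Gy, and 0.53, 0.88 and 0.59 after 5x2 Gy. The 3 regimens did not overlap, with 2 Gy near 0. Man2b1 rose by 0.43 ± 0.12 after 10 Gy (limma adjusted p = 0.022) and by 0.67 ± 0.09 after 5x2 Gy (1.59-fold, adjusted p = 0.00084). Gla, the alpha-galactosidase A, was at 0.49, 0.27 and 0.15 after 2 Gy, 0.47 and 0.41 after 10 Gy, and 0.63, 0.34 and 0.42 after 5x2 Gy, all positive and overlapping. It rose after 10 Gy and 5x2 Gy by 0.44 ± 0.12 and 0.46 ± 0.10 (limma adjusted p = 0.025 and 0.0059).

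Neu1, a sialidase, had log2 ratios of 0.53, 0.65 and 0.64 after 2 Gy, -0.19 and 0.37 after 10 Gy, and 0.54, 0.37 and 0.47 after 5x2 Gy. It had the highest log2 ratio of the members called after 2 Gy (0.61 ± 0.11, 1.52-fold, limma adjusted p = 0.0080), rose after 5x2 Gy (0.46 ± 0.11, adjusted p = 0.0097) and was at 0.09 ± 0.14 after 10 Gy (adjusted p = 0.64), where its arrays had opposite signs and its other probes were at 0.45 and 0.23. Glb1, the beta-galactosidase used to stain senescent cells, was called after 5x2 Gy (0.25 ± 0.09, limma adjusted p = 0.0496), with its second probe at -0.18. Hexa, Naglu and Gusb, which encode a subunit of beta-hexosaminidase, an acetylglucosaminidase and beta-glucuronidase, were called after no regimen, with means between -0.16 and 0.32. The second, dimmer probe of Gusb was positive on all 8 arrays (0.43 to 1.31), with means of 0.77, 0.89 and 0.53 after 2 Gy, 10 Gy and 5x2 Gy against 0.03, 0.11 and 0.12 on the tested probe.

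Among the 5 genes of lipid breakdown and enzyme support, 0, 1 and 2 were called higher after 2 Gy, 10 Gy and 5x2 Gy. Shares of all genes called higher were 8.99%, 12.4% and 17.6%. Grn, which encodes progranulin, a growth factor precursor that is processed in lysosomes, had log2 ratios of 0.53, 0.36 and 0.29 after 2 Gy, -0.03 and 0.59 after 10 Gy, and 0.51, 1.04 and 0.81 after 5x2 Gy. It rose after 5x2 Gy by 0.78 ± 0.14 (limma adjusted p = 0.0022), and its second probe gave 0.76. Ppt1, a thioesterase that removes palmitate from proteins, rose after 5x2 Gy by 0.32 ± 0.11 (adjusted p = 0.044), with its second probe at 0.06. Npc2, a soluble cholesterol carrier, was called after 10 Gy (0.64 ± 0.20, limma adjusted p = 0.038) from values of 1.13 and 0.15, a call lost without 10 Gy replicate 1 (adjusted p = 0.46). Lipa, the acid lipase, and Psap, the precursor of the saposins, were called after no regimen, at 0.34 ± 0.13 and 0.33 ± 0.17 after 5x2 Gy.

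All 3 proton pump genes of the set were called higher after 5x2 Gy, against 1 after 2 Gy and 2 after 10 Gy. Shares of all genes called higher were 17.6%, 8.99% and 12.4%. The 15 other proton pump genes tested had a median log2 ratio of -0.10 after 5x2 Gy, with 7 positive. Atp6v0d1, a subunit of the membrane sector, had log2 ratios of 0.49, 0.37 and 0.32 after 2 Gy, 0.49 and 0.23 after 10 Gy, and 0.63, 0.79 and 0.84 after 5x2 Gy. All values were positive and the 5x2 Gy arrays lay above the others. Atp6v0d1 rose by 0.39 ± 0.09, 0.36 ± 0.11 and 0.75 ± 0.09 after 2 Gy, 10 Gy and 5x2 Gy (limma adjusted p = 0.021, 0.042 and 0.00049). Atp6v1h, a subunit of the cytosolic sector, was at -0.13, -0.41 and -0.19 after 2 Gy, 0.51 and 0.41 after 10 Gy, and 0.18, 0.22 and 0.40 after 5x2 Gy. It was negative on every 2 Gy array and positive on every other one. Atp6v1h rose by 0.46 ± 0.12 after 10 Gy and 0.26 ± 0.09 after 5x2 Gy (limma adjusted p = 0.017 and 0.049), and was at -0.24 ± 0.09 after 2 Gy (adjusted p = 0.11, and 0.036 without either 10 Gy array). Atp6ap1, an accessory protein of the pump, rose after 5x2 Gy by 0.40 ± 0.12 (adjusted p = 0.028).

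Tfeb, the transcription factor that governs many lysosome genes and is known to be controlled by phosphorylation and location, had log2 ratios of -0.05, -0.02 and 0.09 after 2 Gy, 0.07 and 0.48 after 10 Gy, and 0.21, 0.17 and 0.08 after 5x2 Gy. Its probe was dim: in the irradiated channel it was above background on 1 of 3 arrays of 2 Gy, 1 of 2 of 10 Gy and 0 of 3 of 5x2 Gy, and in the untreated channel on 2 arrays beside each regimen. It was called after no regimen (limma adjusted p of 0.98, 0.12 and 0.25), and its RNA level does not speak to the activity of the protein.

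Among the 3 genes that start autophagy, Ulk1 was called after each regimen. Ulk1, the kinase of the initiation complex, had log2 ratios of 0.34, 0.52 and 0.57 after 2 Gy, 1.45 and 1.24 after 10 Gy, and 0.84, 0.98 and 0.90 after 5x2 Gy. On this probe the 3 regimens did not overlap, with 10 Gy highest, 5x2 Gy next and 2 Gy lowest. Ulk1 rose by 0.48 ± 0.09, 1.35 ± 0.11 and 0.91 ± 0.09 after 2 Gy, 10 Gy and 5x2 Gy, which is 1.39-fold, 2.54-fold and 1.87-fold (limma adjusted p = 0.0092, 0.00023 and 0.00022). Its second, dimmer probe gave means of 0.47, 1.10 and 0.30. On that probe every 5x2 Gy array lay below every 2 Gy array, so the order of these 2 regimens depends on the probe. Wipi1, which binds the lipid of the growing membrane, was at 0.07, 0.46 and 0.28 after 2 Gy, 0.46 and 0.33 after 10 Gy, and 0.53, 0.69 and 0.46 after 5x2 Gy. Wipi1 rose by 0.39 ± 0.12 after 10 Gy and 0.56 ± 0.10 after 5x2 Gy (limma adjusted p = 0.040 and 0.0026), and its second probe was at -0.01 and 0.38. Becn1, of the lipid kinase complex, was not called (0.27 ± 0.14 after 5x2 Gy, adjusted p = 0.14).

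The genes of the conjugation machinery, Atg5, Atg7 and Atg12, were called after no regimen. Their means were 0.07, 0.21 and -0.12 after 2 Gy, -0.18, 0.20 and 0.33 after 10 Gy, and 0.0003, 0.14 and -0.03 after 5x2 Gy. The substrates of that machinery, the Atg8 proteins, gave a different count: 0, 2 and 3 of 3 were called higher after 2 Gy, 10 Gy and 5x2 Gy. Shares of all genes called higher were 8.99%, 12.4% and 17.6%. The difference between the groups of genes was not tested.

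Map1lc3b, the Atg8 protein most used as a marker of autophagic vesicles, had log2 ratios of 0.32, -0.07 and 0.34 after 2 Gy, 0.62 and 0.43 after 10 Gy, and 0.50, 0.67 and 0.48 after 5x2 Gy. The arrays of 10 Gy and 5x2 Gy overlapped and lay above those of 2 Gy. It rose by 0.52 ± 0.13 after 10 Gy and 0.55 ± 0.11 after 5x2 Gy (limma adjusted p = 0.017 and 0.0035), and its second probe gave 0.62 and 0.65. Gabarapl1, of the GABARAP branch of the family, was at -0.16, 0.02 and 0.02 after 2 Gy, -0.21 and 0.64 after 10 Gy, and 0.76, 0.46 and 0.82 after 5x2 Gy. It rose after 5x2 Gy by 0.68 ± 0.15 (limma adjusted p = 0.0063), while the mean log2 ratio of its second probe there was 0.20, and on the tested probe 10 Gy replicate 1 was the only array of the higher total dose below 0. Gabarapl2 rose by 0.32 ± 0.10 after 10 Gy and 0.24 ± 0.09 after 5x2 Gy (adjusted p = 0.046 and 0.048).

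Sqstm1, a receptor that brings ubiquitinated cargo into autophagic vesicles and is itself degraded there, had log2 ratios of 0.59, 1.42 and 1.03 after 2 Gy, 2.71 and 0.45 after 10 Gy, and 0.62, 1.00 and 0.79 after 5x2 Gy. All 8 values were positive. The irradiated channel was saturated on 2 of 3 arrays of 2 Gy and on all arrays of 10 Gy and 5x2 Gy, so the values cannot be ranked exactly, and Sqstm1 was at least 3.00-fold higher after 10 Gy (limma adjusted p = 0.018) and at least 1.74-fold higher after 5x2 Gy (adjusted p = 0.079, not called). Its mean after 2 Gy was 1.01 ± 0.33 (adjusted p = 0.064). The call after 10 Gy was lost without 10 Gy replicate 1 (0.45, adjusted p = 0.15).

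**Figure D4:**
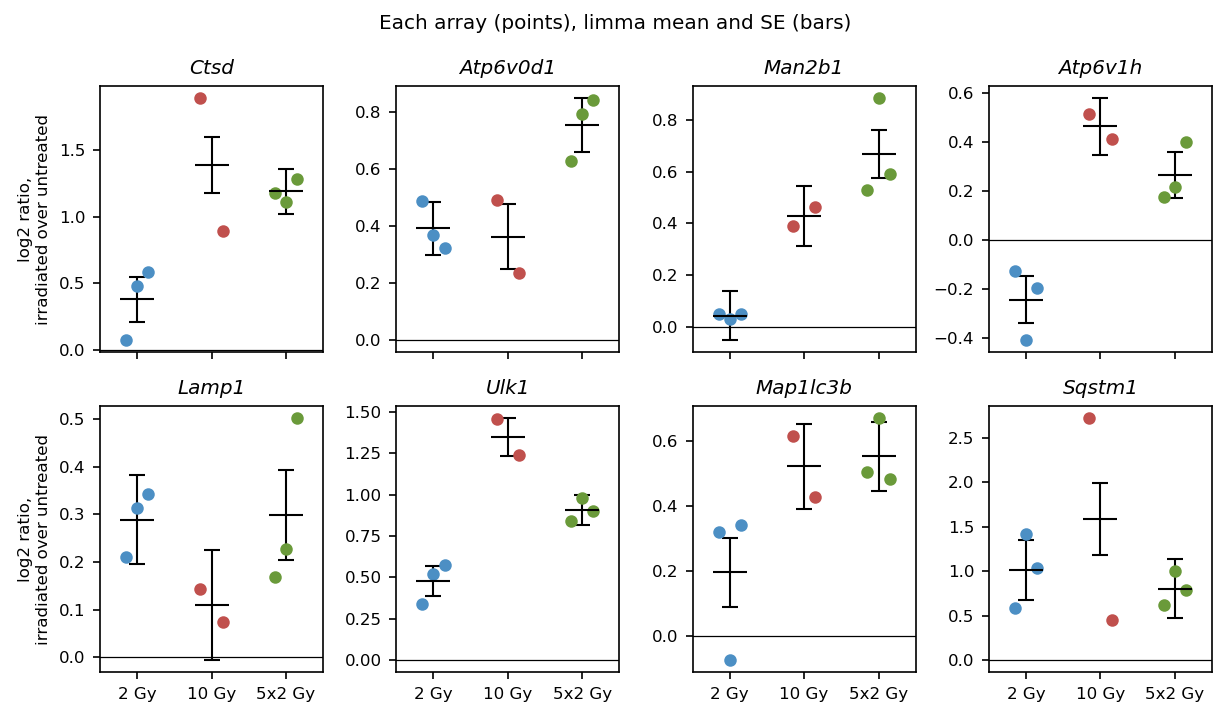
Log2 ratio of irradiated over untreated cells of 8 genes on each array (points, 3 of 2 Gy in blue, 2 of 10 Gy in red, 3 of 5x2 Gy in green), with the limma mean and its SE (black bars), each panel on its own axis. On their tested probes Ulk1 and Man2b1 show 3 groups of arrays without overlap, and Atp6v1h is below 0 on the 2 Gy arrays only. Ctsd and Sqstm1 show the wide gap between the 10 Gy arrays (1.89 and 0.89, and 2.71 and 0.45).

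The regimens were then compared with each other, where a dye effect that is the same on each array cancels. Between 10 Gy and 2 Gy, 2 members were called, both higher after 10 Gy, where 2.56% of all genes were called. Ulk1 was higher after 10 Gy by 0.87 ± 0.15 (limma adjusted p = 0.028) and Atp6v1h by 0.70 ± 0.15 (adjusted p = 0.044). Within slide 1, 10 Gy replicate 1 against the 2 Gy arrays, the differences were 0.98 for Ulk1 and 0.76 for Atp6v1h, from 1 array of 10 Gy. When any array of 2 Gy was left out, 0 members and 0 of all genes were called. Without 5x2 Gy replicate 1, 2 or 3, 0 members and 5, 4 and 4 of all genes were called. On 10 Gy replicate 2 the log2 ratios were 1.24 for Ulk1 and 0.41 for Atp6v1h, against means of 0.48 and -0.24 after 2 Gy. Averaged over their probes, the differences were 0.75 for Ulk1 (adjusted p = 0.064) and 0.40 for Atp6v1h (adjusted p = 0.099). In a moderated F test for any difference among the 3 regimens, 199 genes were called (1.48%), and of the members Ulk1 alone (adjusted p = 0.048).

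Between 5x2 Gy and 2 Gy, limma called 0 of 38 members, where 1.30% of all genes were called. At an unadjusted p under 0.05 there were 13, all higher after 5x2 Gy, against 3436 of all genes. Groups did not overlap for 17 members that were higher and 2 that were lower, where 47.0% of all genes did not overlap. The smallest adjusted p was that of Man2b1 (0.63 ± 0.13, adjusted p = 0.055), followed by Atp6v1h (0.51 ± 0.13, adjusted p = 0.072). Leaving out either 10 Gy array gave 13 members called, all higher after 5x2 Gy, among them Man2b1, Atp6v0d1, Ctsd and Ulk1, beside 4012 of all 13411 genes. The second Ulk1 probe runs the other way, with means of 0.30 after 5x2 Gy and 0.47 after 2 Gy. Slide and regimen cannot be told apart here, since the arrays of 2 Gy and 5x2 Gy lay on separate slides.

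Between 5x2 Gy and 10 Gy, which delivered the same total dose, limma called 0 members and 0 of all genes. At an unadjusted p under 0.05 there were 8 lysosome genes, all higher after 5x2 Gy, and 2 autophagy genes, both lower, against 2241 of all genes. The smallest adjusted p of a member was that of Ctsb, higher after 5x2 Gy by 0.75 ± 0.21 (adjusted p = 0.20). The second Ctsb probe runs the other way, with means of 0.46 after 5x2 Gy and 0.66 after 10 Gy. Groups did not overlap for 10 members that were higher and 4 that were lower, where 30.0% of all genes did not overlap. The difference was positive for 21 of 28 lysosome genes (median 0.23) and for 4 of 10 autophagy genes (median -0.07), beside 6852 of 13411 genes (median 0.01). Within slide 2, 10 Gy replicate 2 alone set against the 5x2 Gy arrays, the medians were 0.20 for lysosome and -0.07 for autophagy genes. Over all 8 arrays, with median centring in place of loess, they were 0.06 and -0.22. Without 10 Gy replicate 2, which leaves the array of the other slide, 20 members were called, 13 higher and 7 lower after 5x2 Gy, beside 5788 of all 13411 genes. That fit holds no spread between 10 Gy arrays. Not passing the test on all 8 arrays does not show that the single and the fractionated dose acted alike.

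Other genes of the pathways, 101 of the lysosome and 58 of autophagy, were set beside the members. Of 92 other lysosome genes tested, 14 were called higher and 1 lower after 2 Gy, 22 and 9 after 10 Gy, and 30 and 10 after 5x2 Gy. Of 57 other autophagy genes tested, 11 were higher and 3 lower after 2 Gy, 14 and 6 after 10 Gy, and 22 and 6 after 5x2 Gy. Among all genes 8.99%, 12.4% and 17.6% were called higher after 2 Gy, 10 Gy and 5x2 Gy, and 7.93%, 15.8% and 23.4% lower. The medians of the other lysosome and the other autophagy genes after 5x2 Gy were 0.17 each, and -0.02 for all genes. Fuca1, the lysosomal fucosidase, rose by 0.54 ± 0.10, 1.23 ± 0.12 and 1.14 ± 0.10 after 2 Gy, 10 Gy and 5x2 Gy (limma adjusted p = 0.0080, 0.00038 and 0.00017). Gabarap, the Atg8 protein that names the branch of Gabarapl1 and Gabarapl2, rose by 0.45 ± 0.09, 0.77 ± 0.11 and 0.65 ± 0.09 (limma adjusted p = 0.0090, 0.0011 and 0.00066).

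**Figure D5:**
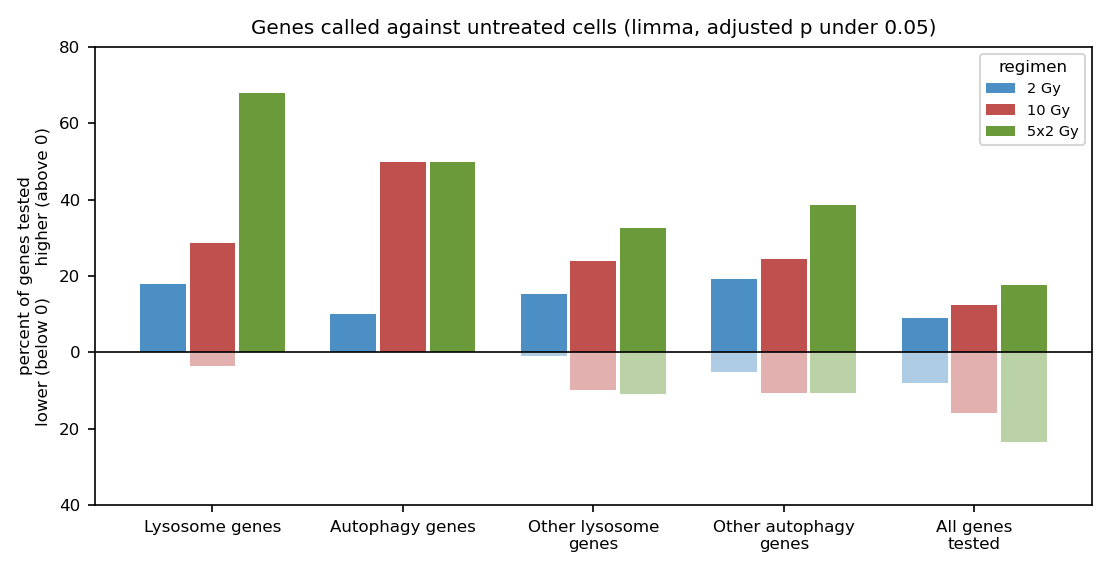
Percent of the tested genes of each list called higher (full bars, above 0) or lower (pale bars, below 0) than in untreated cells after 2 Gy (blue), 10 Gy (red) and 5x2 Gy (green). Lists are the 28 lysosome and 10 autophagy genes, 92 other lysosome and 57 other autophagy genes and all 13411 genes; after 5x2 Gy 19 of 28, 5 of 10, 30 of 92 and 22 of 57 were higher, beside 17.6% of all genes.

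Among hydrolases outside the set, Sgsh, a sulfamidase, and Naaa, an amidase of fatty acid ethanolamides, rose after 5x2 Gy by 0.94 ± 0.10 and 0.85 ± 0.10 (limma adjusted p = 0.00027 and 0.00047). Of the other proton pump genes 1, 1 and 6 of 15 were called higher after 2 Gy, 10 Gy and 5x2 Gy, and 0, 0 and 1 lower. Shares of all genes were 8.99%, 12.4% and 17.6% higher and 7.93%, 15.8% and 23.4% lower. After 5x2 Gy the median of these 15 genes was -0.10. On all 3 arrays 8 of 15 were negative and 6 positive, beside 5362 and 4767 of all 13411 genes. Atp6v1a of the cytosolic sector was at 0.86 ± 0.16 after 5x2 Gy (adjusted p = 0.0034). Lamp3, a membrane glycoprotein related to Lamp1, fell by 0.60 after 2 Gy and by 0.92 after 5x2 Gy (SE 0.09 each, adjusted p = 0.0034 and 0.00021), while Ctns, the cystine exporter, rose by 0.92 ± 0.14 after 5x2 Gy (adjusted p = 0.0010).

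Around Ulk1, Atg13, its partner in the initiation complex, rose by 0.80 ± 0.10 after 5x2 Gy and Rab7, a small GTPase of late endosomes, by 0.75 ± 0.09 (limma adjusted p = 0.00044 and 0.00039). Among receptors, Nbr1, which like Sqstm1 carries ubiquitinated cargo, rose by 0.60 ± 0.10 after both 2 Gy and 5x2 Gy (adjusted p = 0.0053 and 0.0020). Bnip3, a mitophagy receptor, fell by 1.98 ± 0.25 after 10 Gy and by 1.45 ± 0.20 after 5x2 Gy (limma adjusted p = 0.00078 and 0.00082). Of regulators at the lysosome, Nprl3, of a complex that restrains the growth kinase mTORC1, rose by 1.05 ± 0.11 after 5x2 Gy (adjusted p = 0.00026). Flcn and Tfe3, a control protein and a relative of Tfeb, rose after 10 Gy by 0.57 ± 0.11 and 0.55 ± 0.11 (adjusted p = 0.0057 and 0.0063). Among autophagy genes linked to p53, Ddit4 and Sesn2, which both restrain mTORC1, rose after 10 Gy by 2.15 ± 0.23 and 2.14 ± 0.37, and Dram1, a lysosomal membrane protein, by 0.53 ± 0.11 (adjusted p = 0.00044, 0.0032 and 0.0066).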

How the data were processed

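Per the file headers, the deposited scanner files hold an intensity (mean and median pixel signal) per spot and channel, quantified with ImaGene 9.0 and not corrected or normalized. They give no local background, and what a spot flag means is not given in the sources used here. The deposited series matrix holds the authors' log2 values per probe, the Cy5 signal over the Cy3 signal. Against the loess ratios of the same arrays without background correction its columns had r of 0.998 to 1.000 over probes, slopes of 0.993 to 0.999 and medians of -0.005 to 0.009, which gives scale and direction.

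From the mean intensity of 45220 spots, normexp (offset 50) on the foreground and loess within each array were run in limma 3.58.1 (R 4.3.3), with control spots at weight 0. Repeated spots were averaged. Kept were 21685 of 41174 probes, those whose signal on at least 2 arrays exceeded, in either channel, the 153 negative controls' median by 2.6 robust SD, and the brightest kept probe of each symbol was tested. Symbols were updated through RefSeq accessions (27190 probes matched, 1500 changed, 7754 kept the array's symbol, 6230 had none), which changed no member's probe. All 8 arrays entered 1 fit with a mean for each regimen and a shared spread (lmFit, eBayes). A spot counted as saturated at a median or mode of 65000 or more. A fold of a member saturated on all irradiated arrays of a regimen is a lower bound from the normalized means and open to dye bias. P-values measure the spread between these arrays.

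The alternatives were other background, scaling, filter, probe, slide, weighting and replicate settings, and each array left out. Same-numbered arrays deviated from their regimen means with r of -0.24 to 0.11 over genes, and were not treated as paired. The test was also run on simulated data with independent arrays and no slide effect, so that run does not speak to slide effects. Members, gene lists, tests and the rule for naming genes were chosen with earlier results of these data known. By that rule, called members with the smallest p whose arrays share a sign (between regimens, do not overlap), up to 6 lysosome and 4 autophagy genes per comparison, are given on every array, as are Lamp1, Ctsd, Tfeb, Sqstm1 and Map1lc3b. Values of Lamp2 were added after they were seen. Up to 3 called genes with the smallest p were taken from each other list, of which the text gives a part.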

Additional observations from a re-analysis of the deposited data

Results flagged for a closer look

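Members whose arrays all had 1 sign after 1 regimen and the opposite sign after another are given here, from 5 genes. Such opposite signs were seen for 6.50% of all genes between 10 Gy and 2 Gy (3 members), 9.66% between 5x2 Gy and 2 Gy (4 members) and 4.21% between 5x2 Gy and 10 Gy (2 members). Differences are in log2 ratios ± SE from limma.

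Atp6v1h, the proton pump subunit, was negative on all 2 Gy arrays and positive on all others. The difference was 0.70 ± 0.15 for 10 Gy against 2 Gy (adjusted p = 0.044) and 0.51 ± 0.13 for 5x2 Gy against 2 Gy (adjusted p = 0.072). With median centring its mean after 2 Gy was -0.05, and the mean of its 3 kept probes was -0.01, so its place below 0 after 2 Gy is uncertain.

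Gabarapl2 was likewise negative after 2 Gy only, with differences of 0.39 ± 0.14 for 10 Gy (adjusted p = 0.15) and 0.31 ± 0.12 for 5x2 Gy (adjusted p = 0.15). Atg12 was positive on both 10 Gy arrays and negative on the others, by 0.45 ± 0.14 for 10 Gy against 2 Gy (adjusted p = 0.12) and -0.36 ± 0.14 for 5x2 Gy against 10 Gy (adjusted p = 0.26), with other probes of mixed sign. Glb1 was positive after 5x2 Gy only, by 0.36 ± 0.13 against 2 Gy (adjusted p = 0.13) and 0.45 ± 0.14 against 10 Gy (adjusted p = 0.22), and its second probe was at -0.18 after 5x2 Gy. Ppt1 was negative after 2 Gy and positive after 5x2 Gy, by 0.50 ± 0.16 (adjusted p = 0.10). Of these differences only that of Atp6v1h between 10 Gy and 2 Gy passed the test.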

How the results depend on the processing

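The numbers of members called after 2 Gy, 10 Gy and 5x2 Gy were 6, 14 and 24, and 2, 0 and 0 for 10 Gy against 2 Gy, 5x2 Gy against 2 Gy and 5x2 Gy against 10 Gy. After 5x2 Gy, Ctsd, Atp6v0d1 and Ulk1 were called under all 23 alternatives run, and after 10 Gy Ulk1 was. The list medians stayed positive in these alternatives, at 0.29 to 0.44 for lysosome and 0.25 to 0.45 for autophagy genes after 5x2 Gy, 0.15 to 0.52 and 0.30 to 0.51 after 10 Gy, and 0.12 to 0.42 and 0.08 to 0.31 after 2 Gy, the upper ends after 2 Gy and 10 Gy being those of median centring, which turns the order of 10 Gy and 5x2 Gy. Median centring gave 20, 22 and 26 after 2 Gy, 10 Gy and 5x2 Gy (3610, 3913 and 5235 of all genes) and 1 for 10 Gy against 2 Gy (494 of all genes). It also moved the median of all genes after 2 Gy to 0.13. Scaling between arrays gave 16, 7, 15 and 0 for the first 4 comparisons (4127, 2743, 3965 and 27 of all genes). Array weights gave 22 and 1 after 2 Gy and 10 Gy, then 0 and 17 against 2 Gy (7281, 222, 2 and 6016 of all genes). Fitting only the compared regimens gave 15, 2, 0 and 13 (4819, 300, 0 and 4012 of all genes). With slide as a block, 13, 14 and 8 were called after 2 Gy, for 10 Gy against 2 Gy and for 5x2 Gy against 2 Gy. Of all genes these were 4464, 4302 and 2371. As a random block it gave 0, 4, 3, 9 and 1 in the first 5 comparisons (21, 1464, 817, 2905 and 236 of all genes). The replicate block gave 2, 4 and 0 after 2 Gy, after 10 Gy and for 10 Gy against 2 Gy (1418, 2274 and 0 of all genes). The count for 10 Gy against 2 Gy was 1 with normexp at offset 0 and 0 for the mean of all kept probes (323 and 298 of all genes). For 5x2 Gy against 2 Gy it was 1 without background correction, with the series matrix values, without the filter and for the mean of all kept probes. Of all genes, 247, 225, 254 and 244 were called in these. Leaving out 1 array gave 0 to 18, 8 to 18 and 11 to 31 after 2 Gy, 10 Gy and 5x2 Gy, and 0 to 14, 0 to 13 and 0 to 20 between regimens. Calls of the opposite sign arose with slide as a block alone: Hexa -0.44, Psap -0.48 and Gabarapl1 0.39 after 2 Gy, Hexa 0.39 and Atg5 -0.38 after 5x2 Gy, and Hexa 0.83, Npc2 0.77 and Sqstm1 2.05 for 5x2 Gy against 2 Gy. That block carries over the gap between the 10 Gy arrays. For the other alternatives the cause was not tested. Of the members' probes, 36 of 38 were above background in both channels on all arrays, and saturation touched 5.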
